A study of Mus musculus with 16 samples.

Results

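miR-9 was followed through 16 small RNA libraries of the mouse cell line C2C12, whose myoblasts stop dividing and join into multinucleate myotubes in low serum. It has 2 mature products, miR-9-5p and miR-9-3p, among 2274 miRNA names with reads in the series. The pair was chosen by its reads in triple-knockout against control cells, where the 5p arm was far lower in the knockout. Values of that comparison are therefore a description, with no test, and tests are given for differentiation and for the lines within a genotype. Reads were taken under 8 listed names, which are both arms with and without a hairpin copy number, and they came to 3090 reads over 164 sequences, 109 of them listed as 5p and 55 as 3p.

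The cells are wild-type C2C12 controls and C2C12 cells that lack the miR-206 hairpin and both hairpins of miR-1a (miR-1a-1, miR-1a-2), the triple knockout (tKO), and the labels call the parent cells of all groups C2C12 PAX7 NEG. Each genotype was sampled as myoblasts in growth medium with 20% FBS (GM) and as myotubes after 3 days in 2% HS (DM3). Each of the 4 groups holds 4 libraries from 2 lines, which are 2 populations of control cells or 2 clones of tKO cells, with 2 biological replicates of each line. A group thus rests on 2 lines and not on 4 independent cell sources, and each tKO line is a single clone. The p-values below measure the spread between these libraries.

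miR-9 is known as a miRNA of the developing nervous system, where its 5p arm acts on Hes1 and REST transcripts and its 3p arm on that of CoREST. A miRNA is cut as a duplex from a hairpin precursor. Bases 2 to 8 of each strand, the seed, pair with target transcripts, so a strand that starts 1 base later carries a different seed. miR-206 and miR-1 belong to the skeletal muscle miRNAs that rise when myoblasts differentiate.

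The mature arms are shown to identify what was counted, with their seeds in capitals, from RefSeq (GRCm38.p6).
miR-9-5p: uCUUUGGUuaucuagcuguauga
miR-9-3p: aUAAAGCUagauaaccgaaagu

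Both arms are encoded, base for base the same, in 3 hairpins on 3 chromosomes, which are shown because no hairpin-matched read, as defined below, could be placed among them (mature arms in capitals, plus strand, GRCm38.p6). Mir9-1 lies at chr3:88215598-88215686, in an intron of the lincRNA Gm3764 and across from the miRNA gene Gm25641 on the minus strand, in the GENCODE M21 annotation. Mir9-2 lies at chr13:83738814-83738885 and overlaps an exon of the lincRNA C130071C03Rik. Mir9-3 lies at chr7:79505264-79505353, in an intron of its lincRNA host Mir9-3hg.
Mir9-1: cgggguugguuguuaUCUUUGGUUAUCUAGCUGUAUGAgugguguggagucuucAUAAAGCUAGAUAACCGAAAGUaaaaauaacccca
Mir9-2: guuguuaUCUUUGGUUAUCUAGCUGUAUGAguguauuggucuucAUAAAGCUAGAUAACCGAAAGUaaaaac
Mir9-3: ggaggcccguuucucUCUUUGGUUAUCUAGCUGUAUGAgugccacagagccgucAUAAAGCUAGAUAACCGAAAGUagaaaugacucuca
Of the 164 member sequences, 24 with 2260 reads lay without mismatch in a hairpin, over at least 16 nt and starting within 3 bases of a mature start, and they are called hairpin-matched here. Each of these 24 was contained in all 3 hairpins, so these reads do not tell which hairpin they came from, whatever copy number their listed name carries.

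The libraries held 112792 to 6543570 miRNA reads, and those of replicate 2 were deeper than those of replicate 1 in every line and medium. Levels are given as CPM, a library's reads of the miRNA scaled to the same total in every library. Intervals and detection limits cover counting error only, since reads without molecular identifiers are not independent molecules, and 3 reads correspond to between 0.459 and 26.6 CPM. The shallowest library, line 1 replicate 1 of tKO DM3, also stood apart in that 62.2% of its reads matched a hairpin, against 75.1% to 89.5% elsewhere. It held 0 miR-9 reads, so the main values of miR-9 in tKO DM3 are also given without it. miR-206-3p, from a deleted hairpin, fitted the labels, with 837 to 1466 CPM in control GM and 19950 to 57442 CPM in that of DM3, against 0.808 to 15.5 CPM and 0.960 to 70.9 CPM in tKO. Of the other muscle markers, miR-1a-3p, also from deleted hairpins, was at 3.67 to 8.96 CPM in control GM and 28.5 to 165.1 CPM in control DM3, and at 0 to 3.06 and 0 to 7.36 CPM in tKO. miR-133a-3p was at 2.64 to 14.9 CPM for control and 2.22 to 6.46 CPM for tKO in GM, and in DM3 at 1130 to 2190 and 65.8 to 762 CPM, without overlap. miR-133b-3p was at 0 to 5.25 and 0 to 1.17 CPM in GM, and in DM3 at 347 to 738 and 24.7 to 199.9 CPM, again without overlap. The part of this marker difference in the miR-9 values was not tested. Blood markers did not exceed 4.32 CPM in any library.

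miR-9-5p was present in every control library and low or at 0 in every tKO library. In control GM it stood at 101.5 and 114.8 CPM in replicates 1 and 2 of line 1, and at 156.5 and 98.1 CPM in those of line 2. In tKO GM the same order gave 4.04, 12.8, 7.22 and 11.01 CPM, from 5 to 66 reads a library. The lowest control GM library was above every tKO GM library, and the groups did not overlap. Since this contrast chose miR-9, the lack of overlap here and in DM3 is a description. The share of all names without overlap was not computed.

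After 3 days of differentiation the separation was again complete. Control DM3 libraries held 52.4 and 57.2 CPM in line 1 and 105.5 and 94.9 CPM in line 2. In tKO DM3 the level was 0 and 19.2 CPM in clone 1, and 6.79 and 21.6 CPM in clone 2. The 0 comes from the shallowest library, in which 3 reads are 26.6 CPM, a limit above each of the other 3 tKO DM3 levels.

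As group means, miR-9-5p was 118 ± 26.8 CPM (SD, n = 4) for control and 8.76 ± 3.91 CPM for tKO in GM, so tKO cells held 7.44% of the control level. In DM3 the means were 77.5 ± 26.6 and 11.9 ± 10.2 CPM (SD, n = 4), and the tKO share was 15.3%, or 20.5% without the shallowest library. The edgeR fit across 807 names gave a log2 fold change of -3.87 (SE 0.54) in GM and -2.35 (SE 0.52) in DM3, and -2.07 (SE 0.49) in DM3 without the shallowest library. The difference between the fold changes in DM3 and GM, which is also that between the differentiation effects of tKO and control, was 1.52 (SE 0.70), a description with no p, since it is built from the values that chose miR-9. Over all names, 9 of 807 (1.12%) were called for genotype in GM and 7 of 807 (0.867%) in DM3 at an adjusted p under 0.05, and since this contrast chose miR-9, nothing is read from its place among them. In these bulk samples, fewer cells with miR-9 and less miR-9 per cell cannot be told apart.

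As a share of the control level, the miR-9-5p reads in tKO cells were a larger remainder than that of the deleted miR-206-3p. Mean miR-206-3p in tKO was 0.588% of control in GM and 0.0634% in DM3 (0.0157% without the shallowest library), beside the 7.44% and 15.3% of miR-9-5p. In CPM the tKO means of miR-9-5p and miR-206-3p were 8.76 and 6.79 in GM, and 11.9 and 21.8 in DM3. Without the shallowest library those in DM3 were 15.85 and 5.39 CPM. For miR-1a-3p, also from deleted hairpins, the share of control that remained was larger than that of miR-9-5p in GM and smaller in DM3. Its means in tKO and control were 1.39 and 5.27 CPM in GM (14 and 68 reads), and 3.00 and 109 CPM in DM3. Whether the remaining reads come from all cells of a clone was not measured. Between the genotypes, the endothelial markers miR-126a-3p and miR-126a-5p summed in GM to 14.2 to 27.9 CPM for control and 2.42 to 15.8 CPM for tKO, and to 5.02 to 16.0 and 4.07 to 20.2 CPM in DM3. The summed epithelial markers (miR-200c-3p, miR-141-3p and miR-205-5p) overlapped between genotypes, at 2.02 to 23.2 CPM over all libraries. Of these, miR-141-3p did not overlap in GM, with 0 to 1.05 CPM (8 reads) for control and 1.11 to 4.59 CPM (30 reads) for tKO, and it overlapped in DM3. The part of other cell types in the miR-9 difference was not tested.

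**Figure D1:**
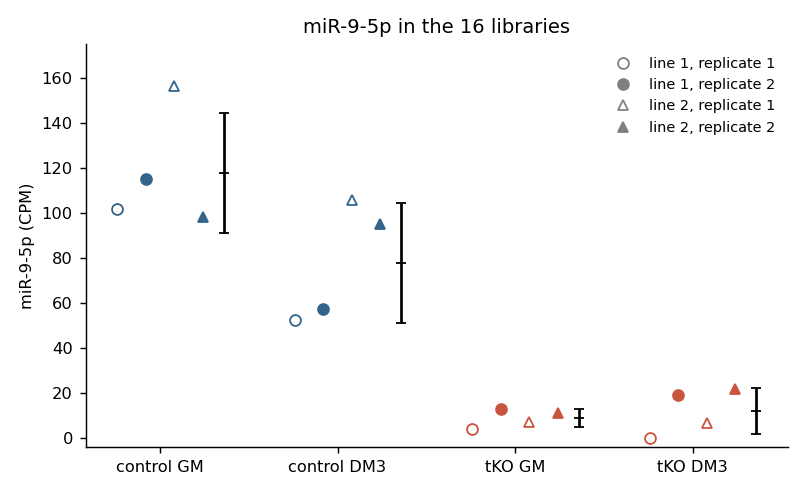
miR-9-5p in CPM in each of the 16 libraries, by group, with circles for line 1, triangles for line 2, open symbols for replicate 1 and filled symbols for replicate 2. Bars are mean ± SD of 4 libraries, and the 8 control libraries, from 52.4 to 156.5 CPM, all sit above the 8 tKO libraries, from 0 to 21.6 CPM.

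The reads listed as miR-9-3p did not separate the genotypes. Control GM libraries held 13.7 and 18.5 CPM in line 1 and 6.85 and 11.6 CPM in line 2. In tKO GM the level was 2.42 and 15.8 CPM in clone 1 and 7.22 and 23.4 CPM in clone 2. In DM3, control libraries held 8.07, 19.4, 7.54 and 22.1 CPM and tKO libraries 0, 76.5, 2.71 and 19.2 CPM, in the same order. The groups overlapped in both media, and 1 library, line 1 replicate 2 of tKO DM3 at 76.5 CPM, was above all others. The log2 fold change of tKO against control was -0.13 (SE 0.73) in GM and 0.82 (SE 0.75) in DM3. Without that library it was -0.43 in DM3, and without the shallowest library 1.08 (SE 0.67).

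Most reads listed as miR-9-3p did not lie in a miR-9 hairpin without mismatch. Of 802 listed 3p reads, 659 (82.2%, Wilson 95% interval 79.4% to 84.7%) were not hairpin-matched, while this held for 171 of 2288 listed 5p reads (7.47%). The share was 67.6% of 287 listed 3p reads in control and 90.3% of 515 in tKO. The 3 sequences that make up 594 of these reads are shown because they carry the listed 3p level. Each is listed with a mismatch, is shorter than 16 nt and does not contain the 3p seed.
listed fragment 1: agtgccacagagacg
listed fragment 2: tggtgtggaatct
listed fragment 3: agtgccacagagac
The first had 410 reads, 128 in control and 282 in tKO. The second had 102 reads, 9 in control and 93 in tKO, and the third had 82, with 29 in control and 53 in tKO. No GENCODE M21 miRNA hairpin contained any of the 3 without mismatch. Without gaps, the first and the last were 1 mismatch away from a place in Mir9-3, where all but their first base lie in the loop, and at least 6 mismatches away from any place in the other 2 hairpins. The second was 1 mismatch away from a place inside the loop of Mir9-1 and 6 away in the other 2. None of these places touches the 3p arm. Among 141767 GENCODE M21 transcripts the first had no exact match, the second matched transcripts of 4 genes and the third those of 1 gene, and with 13 to 15 nt neither kind of match identifies a source. The listed 3p level is thus mainly the level of these short fragments.

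Counted by hairpin match, the 3p arm was rare in both genotypes. Control libraries held 4, 28, 4 and 27 such reads in GM and 1, 2, 2 and 25 in DM3, in the order line 1 replicates 1 and 2, line 2 replicates 1 and 2. The tKO libraries held 0, 0, 0 and 16 reads in GM and 0, 17, 0 and 17 in DM3. In GM the mean was 4.78 ± 2.37 CPM for control and 0.668 ± 1.34 CPM for tKO, and in DM3 4.89 ± 2.60 and 2.30 ± 2.74 CPM (SD, n = 4 each). Without the shallowest library the tKO mean in DM3 was 3.06 ± 2.78 CPM (SD, n = 3), or 62.5% of control. The genotypes overlapped in GM, where the tKO library of clone 2 replicate 2 at 2.67 CPM was above the lowest control library at 2.11 CPM, and they overlapped in DM3. The tKO reads came from 3 of 8 libraries, all of replicate 2, so the 5 tKO libraries at 0 include all 4 of the shallower replicate.

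**Figure D2:**
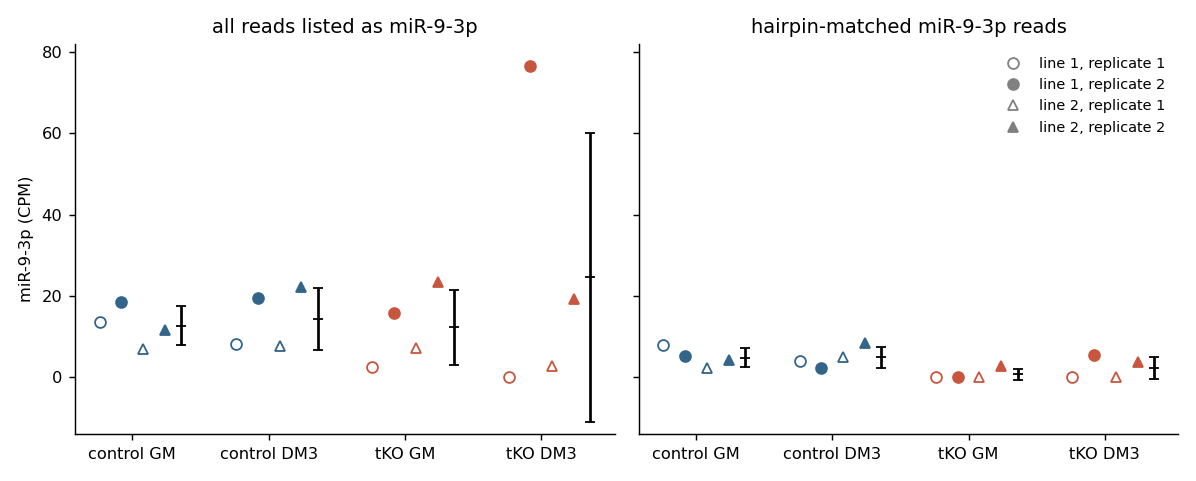
miR-9-3p in CPM in each library, as all reads listed under the name (left) and as hairpin-matched reads (right), with symbols as in the plot of miR-9-5p and bars for mean ± SD of 4 libraries. The tKO DM3 library at 76.5 CPM by listed reads is at 5.44 CPM by hairpin match.

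The hairpin-matched reads of both arms had other shares of first bases in tKO than in control cells. The forms below, with T for U as in the tables and seeds in capitals, are the leading reads that start at the mature 5′ end and 1 base inside it, and they are shown because the later start changes the seed.
5p, mature start: tCTTTGGTtatctagctgtatg
5p, 1 base inside: cTTTGGTTatctagctgtatga
3p, mature start: aTAAAGCTagataaccgaaagt
3p, 1 base inside: tAAAGCTAgataaccgaaagt
Among 3p reads, 52 of 93 in control cells started 1 base inside (55.9%, Wilson 95% interval 45.8% to 65.6%). In tKO cells 0 of 50 did, which allows a share of up to 6% by 3 counts, or 7.135% as the upper Wilson limit. The reads at the mature start numbered 41 in control and 50 in tKO. Their mean level was 1.63 ± 0.439 and 0.668 ± 1.34 CPM in control and tKO GM, and 2.34 ± 1.92 and 2.30 ± 2.74 CPM in DM3 (SD, n = 4 each), so the tKO level in DM3 was 98.2% of control, and 131% without the shallowest library. The 3p form that starts 1 base inside was seen in 7 of 8 control libraries. In tKO it was seen in none of the 3 libraries with hairpin-matched 3p reads (16, 17 and 17 reads), and the other 5 held 0 such reads of any start and could not show it.

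In the 5p arm the later start had the larger share in tKO. Of 1879 hairpin-matched 5p reads in control cells, 9 started 1 base inside (0.479%, interval 0.252% to 0.908%), against 34 of 238 in tKO cells (14.3%, interval 10.4% to 19.3%). By group the share was 0.396% in control GM, 0.826% in control DM3, 7.69% in tKO GM and 18.4% in tKO DM3. In tKO these 34 reads came from 5 libraries, with 2 and 12 reads in replicate 2 of clone 1 in GM and DM3, 5 and 14 in replicate 2 of clone 2, and 1 read in replicate 1 of clone 2 in DM3. In CPM this form stood at 0.250 ± 0.501 in control DM3 and 2.07 ± 1.73 in tKO DM3 (SD, n = 4), and at 0.244 ± 0.299 and 0.464 ± 0.541 in GM. The groups overlapped in GM. In DM3 they overlapped only through the shallowest library, which has 0 miR-9 reads, and the other 3 tKO libraries, at 1.36 to 3.84 CPM (mean 2.76 ± 1.27, SD), were above the highest control library at 1.00 CPM. Over the 4 libraries of replicate 2 in each genotype, the pooled share was 0.600% in control and 15.3% in tKO. These shares belong to the contrast that chose miR-9 and are given without a test. Pooled intervals treat the reads of several libraries as one sample and cover counting error only.

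**Figure D3:**
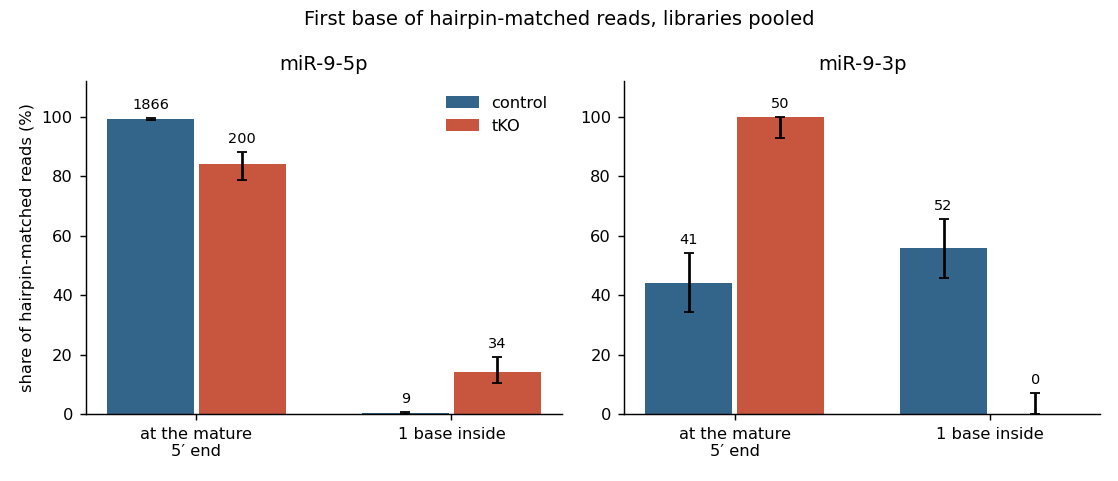
Share of hairpin-matched reads that start at the mature 5′ end or 1 base inside it, for miR-9-5p (left) and miR-9-3p (right), with all 8 control or all 8 tKO libraries pooled, Wilson 95% intervals as error bars and read numbers above the bars. The later start makes up 0.479% of control and 14.3% of tKO 5p reads, and 55.9% of control and 0% of tKO 3p reads.

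At the other end, the listed sequences of the 5p arm were mostly 22 or 23 nt long in both genotypes. These lengths leave out the tails described below. In line 1 replicate 1 of control GM, for example, all 52 5p reads were hairpin-matched and 17.3% of them were tailed. The 22-nt form shown above, which lacks the last base of the annotated arm, had 1018 reads, 925 in control and 93 in tKO. The annotated 23-nt arm had 819 reads, 731 in control and 88 in tKO. Among reads at the mature start, the 22-nt share was 47.4% ± 4.54 in control GM, 45.7% ± 14.8 in tKO GM and 45.3% ± 14.8 in control DM3 (SD, n = 4), and 50.2% ± 7.52 in the 3 tKO DM3 libraries with reads. The 23-nt share was 39.0% ± 3.41, 48.5% ± 18.4, 42.5% ± 7.85 and 41.9% ± 9.41 in the same order. The ranges of all 4 groups overlapped for both lengths, and tKO shares rest on 4 to 77 reads a library.

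3 further properties of the reads were compared between media within control cells, where the choice of miR-9 plays no part. The share of 5p reads with a tail, which is 1 or more bases beyond the template on the 3′ side, was 17.3%, 14.2%, 20.2% and 19.9% in control GM and 15.4%, 13.2%, 14.3% and 9.51% in control DM3, in the order used above. The means were 17.9% and 13.1%, a difference of -4.82 percentage points that did not pass a two-sided exact permutation test (p = 0.0857, 0.257 adjusted over the 3 properties, smallest possible p 0.0286). The share was lower in DM3 in all 4 pairs of line and replicate number, and the exact sign-flip permutation test of the pairs gave p = 0.125, the smallest it can give. Within a line these pairs rest on the replicate number alone. In line 1, replicate 2 of GM, at 14.2%, was below replicate 1 of DM3, at 15.4%. The share of the 3p arm among listed miR-9 reads was 10.1% ± 4.18 in control GM and 16.1% ± 7.95 in control DM3 (SD, n = 4, exact permutation p = 0.257, adjusted 0.386), and the listed 3p reads include the short fragments above. The listed 3p share was higher in DM3 in all 4 pairs, and the exact sign-flip permutation test of the pairs gave p = 0.125. By hairpin match the 3p share was 4.36% ± 2.34 and 6.19% ± 2.09. There not all pairs rose, with 4.47% in GM and 4.08% in DM3 in line 1 replicate 2. The share of 5p reads with a mismatch was 5.18% ± 3.61 in GM and 6.38% ± 4.70 in DM3 (SD, n = 4, exact permutation p = 0.714, adjusted 0.714).

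Differentiation was the contrast that the choice of miR-9 did not use. In control cells miR-9-5p was lower in DM3 than in GM in each of the 4 pairs of line and replicate number, with differences of -0.94 and -0.99 on the log2(CPM + 1) scale in line 1 and of -0.56 and -0.05 in line 2. The levels in line 1 went from 101.5 to 52.4 CPM and from 114.8 to 57.2 CPM. Within a line the pairs rest on the replicate number alone. In line 2, replicate 2 of GM, at 98.1 CPM, was below replicate 1 of DM3, at 105.5 CPM. The edgeR log2 fold change of DM3 against GM was -0.95 (SE 0.48, adjusted p = 0.153 in edgeR's quasi-likelihood test with Benjamini-Hochberg adjustment). With the line and the replicate number as blocks, it was -1.08 (SE 0.41, edgeR adjusted p = 0.0502). It was smaller with scaling by total counts, at -0.595 (edgeR adjusted p = 0.385), for sequences of 18 to 25 nt, at -0.585 (edgeR adjusted p = 0.309), and for the hairpin match, at -0.554 (edgeR adjusted p = 0.315). None of these passed 0.05. Of the 807 names, 223 (27.6%) were called in this comparison. Among them miR-206-3p rose by 4.57 on the log2 scale (SE 0.78, edgeR adjusted p = 0.000257) and the muscle miRNA miR-133a-3p by 6.99 (SE 0.73, edgeR adjusted p = 8.75e-06).

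In tKO cells the 4 pairs went both ways. miR-9-5p was higher in DM3 by 0.55 and 0.91 on the log2(CPM + 1) scale in replicate 2 of clones 1 and 2, and differed by -0.08 in replicate 1 of clone 2. In replicate 1 of clone 1 the DM3 library is the shallowest one with 0 reads. The edgeR log2 fold change was 0.57 (SE 0.51, adjusted p = 0.481), or 0.83 (SE 0.48, edgeR adjusted p = 0.256) without that library, and 159 of 807 names (19.7%) were called in this comparison. For listed miR-9-3p the edgeR values were 0.01 (SE 0.73, adjusted p = 0.997) in control and 0.95 (SE 0.72, adjusted p = 0.387) in tKO. Without the tKO DM3 library at 76.5 CPM the tKO value for miR-9-3p was -0.28, so its sign rests on that library.

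**Figure D4:**
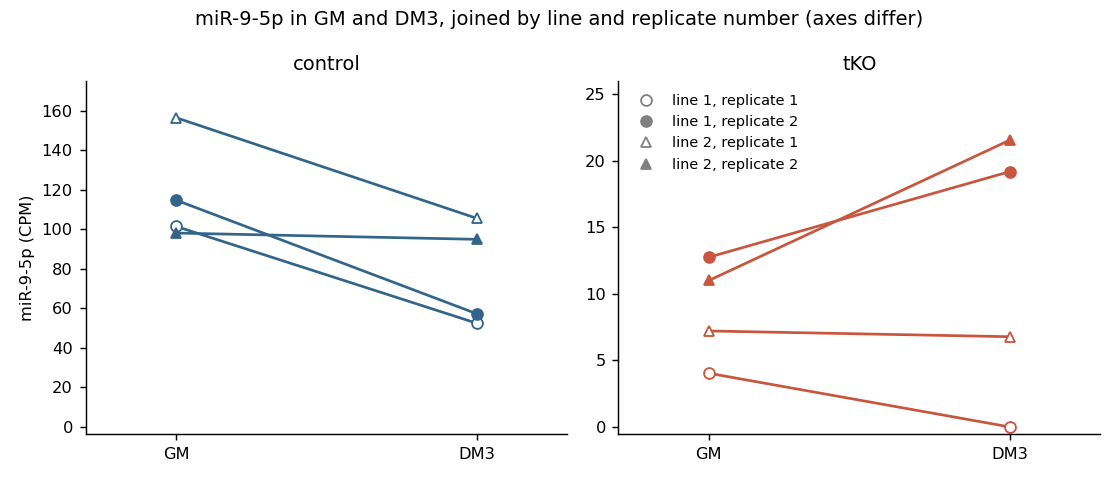
miR-9-5p in CPM in GM and in DM3 for control (left) and tKO (right), each line joining the libraries of 1 line and 1 replicate number, on y axes of different range. All 4 control pairs go down, and in tKO both replicate 2 pairs go up.

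Averaged over the media, no difference between the lines of a genotype passed the test in either arm. In control DM3 the lines did not overlap for miR-9-5p, with line 1 at 52.4 and 57.2 CPM and line 2 at 105.5 and 94.9 CPM, while in the other 3 groups they overlapped, and single media were not tested. Over both media miR-9-5p was higher in clone 2 than in clone 1 by 0.41 on the log2 scale (SE 0.53, edgeR adjusted p = 0.745) and higher in control population 2 than in population 1 by 0.82 (SE 0.50, edgeR adjusted p = 0.810). For listed miR-9-3p these differences were -0.26 (SE 0.71, edgeR adjusted p = 0.887) and -0.08 (SE 0.74, edgeR adjusted p = 0.988). Of 1023 names tested in this fit, 11 (1.08%) differed between the clones and 0 (0.00%) between the populations. Of the latter 1023, 51 had an unadjusted p under 0.05 in edgeR, and DESeq2 called 0 after adjustment and 44 before it. The clone difference of miR-9-5p was 0.076 with scaling by total counts and depended on single libraries, with 4.34 when replicate 2 of clone 1 in DM3 was left out, which leaves that clone and medium to the shallowest library, and -0.10 when replicate 2 of clone 2 in DM3 was left out.

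Of 13 other miRNAs known from the nervous system, 1 was called between the genotypes, and it was higher in tKO, where 1.12% of all names were called in GM and 0.867% in DM3. The list was miR-124-3p, miR-128-3p, miR-137-3p, miR-138-5p, miR-153-3p, miR-219a-5p, miR-218-5p, miR-129-5p, miR-132-3p, miR-212-3p, miR-134-5p, miR-7a-5p and miR-135a-5p. miR-124-3p, the most neuron-specific of them, had 0 reads in all 16 libraries, and 9 of the 13 passed the filter on low counts. miR-137-3p, another neuronal marker, had 2 to 9 reads a group. miR-128-3p, which muscle also expresses, was at 2240 ± 190 CPM for control and 2349 ± 134 CPM for tKO in GM, and at 1871 ± 577 and 2010 ± 866 CPM in DM3 (SD, n = 4), with overlap in both media. The oligodendrocyte marker miR-219a-5p was at 15.7 to 33.2 CPM for control and 16.1 to 28.6 CPM for tKO in GM, and at 16.4 to 112.9 and 9.69 to 150.7 CPM in DM3, with overlap in both media.

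Between the genotypes, 1 of the 9 tested was called higher in each medium and 0 lower, a count too small to set apart from the 1.12% and 0.867% of all names. It was miR-129-5p, with a mean of 37.4 ± 7.87 CPM for control and 328 ± 235 CPM for tKO in GM (SD, n = 4), and an edgeR log2 fold change of 2.99 (SE 0.66, adjusted p = 0.0239) in GM and 2.83 (SE 0.66, adjusted p = 0.0449) in DM3. Both values share the lines with the miR-9 comparison, and the list was chosen with earlier results of these data known. The median log2 fold change of the 9 was 0.12 in GM and 0.11 in DM3, beside 0.11 and 0.09 over all names tested. Between clones and between populations 0 of the 9 were called, beside 1.08% and 0.00% of all names. The clone difference of miR-129-5p was 1.75 on the log2 scale, higher in clone 2 (SE 0.53, edgeR adjusted p = 0.178).

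On differentiation, 1 of the 9 was called higher and 1 lower in each genotype, beside 27.6% of all names called in control and 19.7% in tKO. miR-212-3p went from 7.49 ± 3.69 to 229 ± 164 CPM in control (SD, n = 4, edgeR log2 fold change 4.61, SE 0.65, adjusted p = 7.45e-05). In tKO it went from 8.96 ± 2.65 to 85.1 ± 75.6 CPM (2.75, SE 0.61, edgeR adjusted p = 0.00365). miR-132-3p, encoded beside miR-212, was at 34.98 ± 3.90 and 33.7 ± 10.3 CPM in control (edgeR log2 fold change -0.49, SE 0.34, adjusted p = 0.319). miR-7a-5p fell by 2.99 on the log2 scale in control (SE 0.52, edgeR adjusted p = 0.000291) and by 2.63 in tKO (SE 0.51, edgeR adjusted p = 0.00165). The median of the 9 was -0.49 in control and 0.12 in tKO, beside 0.02 and 0.01 over all names.

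The 5 miRNAs whose levels were most like those of miR-9-5p were taken by Pearson correlation of log2(CPM + 1) over the 16 libraries, among 442 tested names with a mean of at least 20 CPM. They were miR-99a-5p (r = 0.88), miR-181d-5p (0.77), miR-125b-2-3p (0.76), miR-615-3p (0.74) and miR-34b-3p (0.73), and miR-9-3p as listed was at 0.54. The libraries share genotype groups and depth, so these values are a description of 16 points that fall mainly into 2 clusters. Within the 8 control libraries the same miRNAs gave 0.62, 0.90, 0.39, -0.63 and -0.93, and within the 8 tKO libraries 0.73, 0.84, 0.86, 0.85 and 0.70. The last of them, miR-615-3p and miR-34b-3p, thus ran against miR-9-5p within control cells. Over both genotypes without the shallowest library, the 5 values were 0.82, 0.61, 0.62, 0.57 and 0.57. The within-tKO values include that library, in which miR-9-5p and all 5 miRNAs were at their lowest. They were not computed without it, so they may rest on that library.

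miR-99a-5p, encoded in a cluster with let-7c, was at 8614 to 13233 CPM for control and 1690 to 7391 CPM for tKO in GM, and at 6023 to 12056 and 1498 to 8392 CPM in DM3. It did not overlap between genotypes in GM and overlapped in DM3. miR-181d-5p was at 225 to 318 CPM for control and 54.5 to 159 CPM for tKO in GM, without overlap, and at 46.4 to 204 and 0 to 117 CPM in DM3, with overlap. miR-125b-2-3p, at 80.0 to 101.2 CPM for control and 20.9 to 70.1 CPM for tKO in GM, did not overlap there and overlapped in DM3. miR-615-3p overlapped in GM and not in DM3, at 19814 to 37606 and 7066 to 17363 CPM. miR-34b-3p overlapped in both media. These names were taken by likeness to a miRNA chosen for this contrast, so nothing is read from the overlaps. The tKO level of miR-99a-5p was thus a larger part of the control level (4114 of 10870 CPM on average in GM) than that of miR-9-5p (8.76 of 118 CPM).

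**Figure D5:**
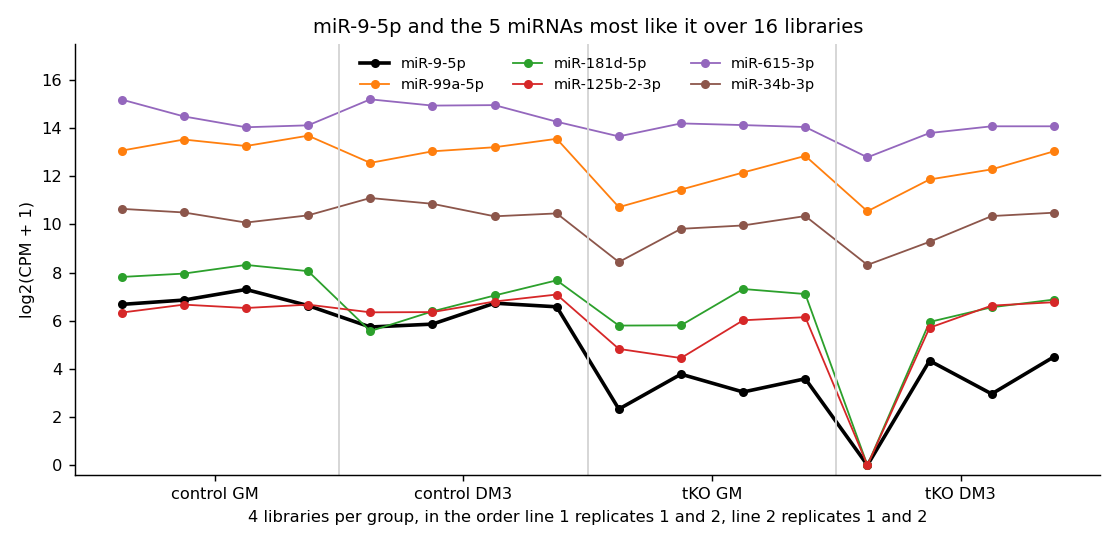
log2(CPM + 1) of miR-9-5p (black) and of the 5 miRNAs with the highest Pearson correlation to it, in 16 libraries ordered by group, line and replicate, with points for libraries. miR-9-5p steps down from control to tKO in both media, and in the shallowest library, first of tKO DM3, miR-9-5p, miR-181d-5p and miR-125b-2-3p are at 0.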

How the data were processed

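The deposited files are unitas tables for mouse, per the file headers and names, that give each sequence with its miRNA name and its expected count of reads, without normalization. Cutadapt 1.15, STAR 2.5.4 and mm10 are named in the submitters' processing notes, without their roles. The unitas version and filters are not given in the sources used here. Libraries were made from total RNA with 3′ and 5′ adapters and size selection on a gel, per the labels' protocols.

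Expected counts were summed per name and library, where 236 of 2510 listed names were merged into a mature name (2274 left), and rounded to whole counts. The members, the lists, the naming rule and the tests were chosen with earlier results of these data known. Named besides the members are the list of neural miRNAs, the 5 names most like miR-9-5p and miR-206-3p, whose hairpin is deleted, and any other name is a marker. The hairpin match was added after the data were seen. It used GENCODE M21 hairpins for all names and RefSeq hairpins (GRCm38.p6) for the first base of miR-9 reads.

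All 16 libraries entered edgeR 4.0.16 in R 4.3.3 (filterByExpr by group with a smallest count of 10, TMM, robust quasi-likelihood F tests, Benjamini-Hochberg adjustment over all names tested, threshold 0.05), with a coefficient per group, or per line and medium for the line comparisons. DESeq2 1.42.0 was an alternative. The code was tested on simulated data. Shares were compared by two-sided exact permutation over 70 assignments.

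The lines pair GM with DM3, since both media hold the same line. The deviations of 443 names from their group means correlated at a mean of 0.164 over 16 pairs of libraries of the same line (lowest -0.263) and at -0.154 over pairs of different lines. For the replicate number the mean was 0.117 over 48 pairs (lowest -0.490), so the number alone is not taken as a pairing. Line and number together gave a mean of 0.212 over 8 pairs of GM and DM3 libraries (lowest -0.163).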

Additional observations from a re-analysis of the deposited data

Results flagged for a closer look

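Among 28 checks of a group of 4 libraries for a value far from the others, of which chance flags about 1 in 20, 2 values stood out. Hairpin-matched miR-9-3p was at 2.67 CPM in line 2 replicate 2 of tKO GM, while the other 3 libraries of that group were at 0. The share of miR-9-5p reads that start 1 base inside was 1.14% (3 of 264 reads) in line 2 replicate 2 of control DM3, while the other 3 control DM3 libraries were at 0. Both are the deepest libraries of their groups.

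Outside the miR-9 names, 674 reads were listed under 6 names of miR-9b, and 0 of them were without mismatch. They came to 6.39 ± 1.78 CPM for control and 8.01 ± 6.45 CPM for tKO in GM, and to 12.1 ± 13.3 and 26.1 ± 30.6 CPM after differentiation (SD, n = 4). These ranges overlap, and the reads were not counted as miR-9.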

How the results depend on the processing

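No comparison of miR-9 within a genotype passed its threshold in the reported values or under a changed scaling, filter, test, block or choice of reads. Beside the fits that leave out a library, 86 such tested values were computed, of which 0 passed, 75 kept their sign and 11 changed it, all 11 for listed miR-9-3p. Of 36 values of tKO against control, which have no test, 34 kept their sign, among them all 20 of miR-9-5p. The replicate block changed no call, with miR-9-5p in DM3 against GM at -0.99 in control and 0.51 in tKO. The sign changes of miR-9-3p were as follows. In DM3 against GM in control it was -0.19 without a filter on low counts, -0.05 in the DESeq2 Wald test, -0.24 with the replicate block and -0.20 with the line and replicate blocks. Between clones it was 2.22 for reads without mismatch, 2.20 for sequences of 18 to 25 nt and 2.21 for the hairpin match, and between populations 0.49, 0.29 and 0.47 for the same reads and 0.032 without a filter. For sequences of 18 to 25 nt, miR-9-3p in tKO against control was -1.92 in GM, and in DM3 it turned from 0.82 to -0.63, with the short fragments left out, and in GM it was 0.075 with replicate 2 alone. In the fit by group, miR-9-3p passed no filter by hairpin match or without mismatch, and replicate 2 alone left no residual for the line comparisons, so these values were not computed.

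With each library left out, miR-9-5p in tKO against control lay between -4.09 and -3.60 in GM and between -2.76 and -1.998 in DM3, and miR-9-3p from -0.77 to 0.16 and from -0.43 to 1.34. DM3 against GM ranged from -1.27 to -0.71 (miR-9-5p) and -0.48 to 0.24 (miR-9-3p) in control, and from 0.13 to 0.83 and -0.28 to 1.63 in tKO. Clone differences ranged from -0.10 to 4.34 and -1.29 to 4.53, and population differences from 0.68 to 0.99 and -0.68 to 0.53. The control shares in DM3 minus GM ranged from 2.82 to 9.05 percentage points for the 3p arm, from -6.05 to -3.62 for tailed reads and from -0.523 to 3.33 for mismatched reads. The tailed share passed 0.05 (exact permutation p = 0.0286) without line 1 replicate 2 of control GM. A lone library left in a cell of the fit was assumed to vary like the other libraries. Few reads limit the tKO values, where miR-9-5p rests on 0 to 98 reads a library and hairpin-matched miR-9-3p on 0 to 17.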
